A study of Mus musculus with 14 samples.

Results

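Expression of 10 immediate early and growth response genes, Egr1, Fos, Fosl1, Jun, Ier2, Ier3, Myc, Mycn, Phlda1 and Emp1, was examined in mouse embryonic stem cells (ESCs) with and without the long noncoding RNA Trincr1. The genes were picked by symbol, and all 10 were found among the 41204 genes of the RNA-seq table. The ESCs came from the cross C57BL/6(F) x 129/sv(M), with 3.5 days as the labelled developmental stage, and were either wild type or carried a Trincr1 knockout (Trincr1-/-), which was made with a pair of guide RNAs; whether the 2 knockout samples came from 1 clone or from several was not given in the sources used here. Each genotype was grown in 2 media. In 2i+LIF, which is N2B27 medium with 1 μM of the MEK inhibitor PD0325901, 3 μM of the GSK3 inhibitor CHIR99021 and 1000 units/ml of leukemia inhibitory factor, the cells kept both inhibitors. For PD+LIF, the cells spent 24 h in 2i+LIF after plating and 4 days in medium with PD0325901 and LIF but without CHIR99021, so that all 4 groups contained the MEK inhibitor and LIF. Poly(A) RNA was sequenced from 2 samples per group, 8 in all. Nothing states that the 2 samples of a group were separate cultures, so the p-values measure only the spread between these samples, which may be technical.

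Immediate early genes are transcribed within minutes of a growth factor signal without the need for new protein synthesis. In the classical route, MEK phosphorylates ERK, and ERK phosphorylates the ternary complex factors that sit with serum response factor (SRF) on the promoters of Egr1, Fos and Ier2. The FOS and JUN proteins then pair as AP-1, which acts on slower growth response genes such as Fosl1, Phlda1 and Emp1. MYC and MYCN are transcription factors of growth and ribosome production, and both maintain self-renewal in ESCs. GSK3, the kinase blocked by CHIR99021, marks MYC and JUN proteins for degradation, and its inhibition stabilizes β-catenin, which raises Wnt target genes. The present values are RNA levels and do not report on protein stability.

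The libraries were of similar depth, at an estimated 10.1 to 13.9 M fragments each. The targeted gene, listed as Gm2694, was at 5.70 and 9.45 FPKM (fragments per kilobase of transcript, scaled to library depth) in wild-type and at 0.0754 and 0 FPKM in Trincr1-/- ESCs in 2i+LIF. In PD+LIF it was at 6.18 and 6.56 FPKM in wild-type and at 1.38 and 0.746 FPKM in Trincr1-/- ESCs, so some signal was left in the knockout in this medium. All 8 pluripotency markers examined were above 1 FPKM in every group, and their summed level was 3413 to 3680 FPKM in 2i+LIF, 2712 to 3060 FPKM in wild-type ESCs in PD+LIF and 1734 to 1971 FPKM in Trincr1-/- ESCs in PD+LIF. Summed markers of fibroblasts, which could come from feeder cells, were between 0.714 and 1.497 FPKM in 2i+LIF, between 4.47 and 4.92 FPKM in wild-type ESCs in PD+LIF, and between 5.93 and 6.87 FPKM in Trincr1-/- ESCs in PD+LIF, with Lum and Dcn under 0.2 FPKM in all 8 samples. Others of this list were higher in PD+LIF. Thy1 went from 0.870 and 0.272 to 3.00 and 3.75 FPKM in wild-type ESCs, and Col1a1 reached 1.95 and 1.82 FPKM in Trincr1-/- ESCs. Summed primitive endoderm markers ranged from 1.04 to 1.89 FPKM in 2i+LIF, from 4.67 to 5.55 FPKM in wild-type and from 7.08 to 7.75 FPKM in Trincr1-/- ESCs in PD+LIF, with Gata6 and Sox17 under 0.2 FPKM throughout. In wild-type ESCs, Gata4 of this list went from 0.564 and 0.840 FPKM to 2.34 and 2.01 FPKM in PD+LIF. Dab2 went from 0.193 and 0.188 FPKM to 2.16 and 1.95 FPKM. Neural progenitor markers summed to 12.5 to 14.8 FPKM, 33.0 to 37.4 FPKM and 41.5 to 42.4 FPKM in the same order, trophoblast markers to 16.7 to 23.0 FPKM, 51.1 to 61.3 FPKM and 44.0 to 51.3 FPKM, and primitive streak markers, with Mesp1 under 0.2 FPKM, to 3.27 to 4.03 FPKM, 0.345 to 0.615 FPKM and 1.28 to 1.74 FPKM. Members of a list did not move alike. From 2i+LIF to PD+LIF in wild-type ESCs, the trophoblast marker Tfap2c rose from 15.4 and 12.6 to 49.0 and 42.1 FPKM. Eomes, of the same list, fell from 3.16 and 2.93 to 1.46 and 1.63 FPKM. Olig2, a neural marker, went from 7.03 and 7.27 to 5.06 and 6.58 FPKM, while Pax6 rose. In PD+LIF, Dppa5a was at 1910 and 1597 FPKM in wild-type and 820 and 1024 FPKM in Trincr1-/- ESCs. Klf4 was at 28.1 and 30.8 FPKM and at 38.3 and 30.3 FPKM there. The marker levels therefore moved with medium and genotype, and their part in the results below was not tested. In bulk RNA, a change in the number of cells that express a gene and a change in RNA per cell cannot be told apart.

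The upstream sequences of Fos, Jun and Emp1 are shown because these genes carried the largest changes between media or genotypes among those with a promoter in the RefSeq table used here, which held Emp1 (with 2 start sites), Fos, Ier3, Jun and Mycn. Each run covers the 250 bases before an annotated start in GRCm38.p6, on the strand of the gene, and capitals mark the letters of the motifs searched.
Fos, chr12:85473640-85473889, plus strand: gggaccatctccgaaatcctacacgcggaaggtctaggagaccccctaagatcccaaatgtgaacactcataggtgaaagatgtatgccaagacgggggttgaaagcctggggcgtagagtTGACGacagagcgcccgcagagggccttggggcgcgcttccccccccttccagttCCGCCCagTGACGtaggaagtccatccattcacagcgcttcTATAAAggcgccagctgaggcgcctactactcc
Jun, chr4:95052223-95052472, minus strand: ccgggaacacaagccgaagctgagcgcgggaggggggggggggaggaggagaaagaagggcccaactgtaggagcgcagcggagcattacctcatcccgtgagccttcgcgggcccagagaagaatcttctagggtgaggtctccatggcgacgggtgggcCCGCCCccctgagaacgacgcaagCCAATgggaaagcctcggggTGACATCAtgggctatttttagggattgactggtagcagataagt
Emp1, chr6:135362681-135362930, plus strand: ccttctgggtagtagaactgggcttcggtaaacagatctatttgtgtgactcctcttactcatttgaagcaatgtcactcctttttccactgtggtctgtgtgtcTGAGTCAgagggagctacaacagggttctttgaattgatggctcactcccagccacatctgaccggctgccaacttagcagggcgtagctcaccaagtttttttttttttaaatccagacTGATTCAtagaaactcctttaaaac
Motifs were searched on both strands of 32851 RefSeq promoters of 300 bases, which include 50 bases after the start. The Fos promoter held TGACG, the core of a cAMP response element, at 129 and 66 bases before the start, a motif found in 20.8% of all promoters, and TATAAA at 33 bases before the start, found in 13.6%. The Jun promoter held TGACATCA, a form of the AP-1 and cAMP response motif TGACNTCA found in 8.8% of promoters, at 45 bases before the start, and CCAAT, found in 37.4%, at 65 bases. A TGACNTCA whose open base is G also counts under TGACG. The AP-1 motif TGANTCA, found in 7.8% of promoters, stood in the Emp1 promoter shown at 145 bases before the start as TGAGTCA and at 25 bases as TGATTCA. The window of the other Emp1 start (chr6:135367243-135367542) held none of the motifs searched. Both Fos and Jun also held GGGCGG on the reverse strand, a GC box found in 35.7% of promoters. The CArG box bound by SRF, found in 1.6% of promoters, the TCF motif ATCAAAG, found in 3.7%, and the MYC motif CACGTG, found in 7.2%, matched none of the 6 windows of these genes. The windows end 250 bases before the start, and Egr1 and Ier2 had no promoter among those used. Sites further upstream were not searched, so a missing match does not show that a gene lacks the site. A match of letters is a description and not a binding site.

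The 10 genes differed widely in level. Averaged over the 8 samples, Ier2 was at 75.8 FPKM and Mycn at 56.1 FPKM, which placed them at the percentiles 93.0 and 90.0 of the 15430 genes with a mean above 0.2 FPKM, and together they made up 78.1% to 86.2% of the summed FPKM of the 10 genes. Emp1 (9.66 FPKM), Myc (7.73 FPKM), Ier3 (4.34 FPKM), Jun (3.84 FPKM) and Phlda1 (1.53 FPKM) lay in the middle. Fos (0.825 FPKM), Fosl1 (0.353 FPKM) and Egr1 (0.118 FPKM) were the lowest, and Egr1 fell under the filter of 0.2 FPKM, so that 9 of the 10 genes were tested.

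**Figure D1:**
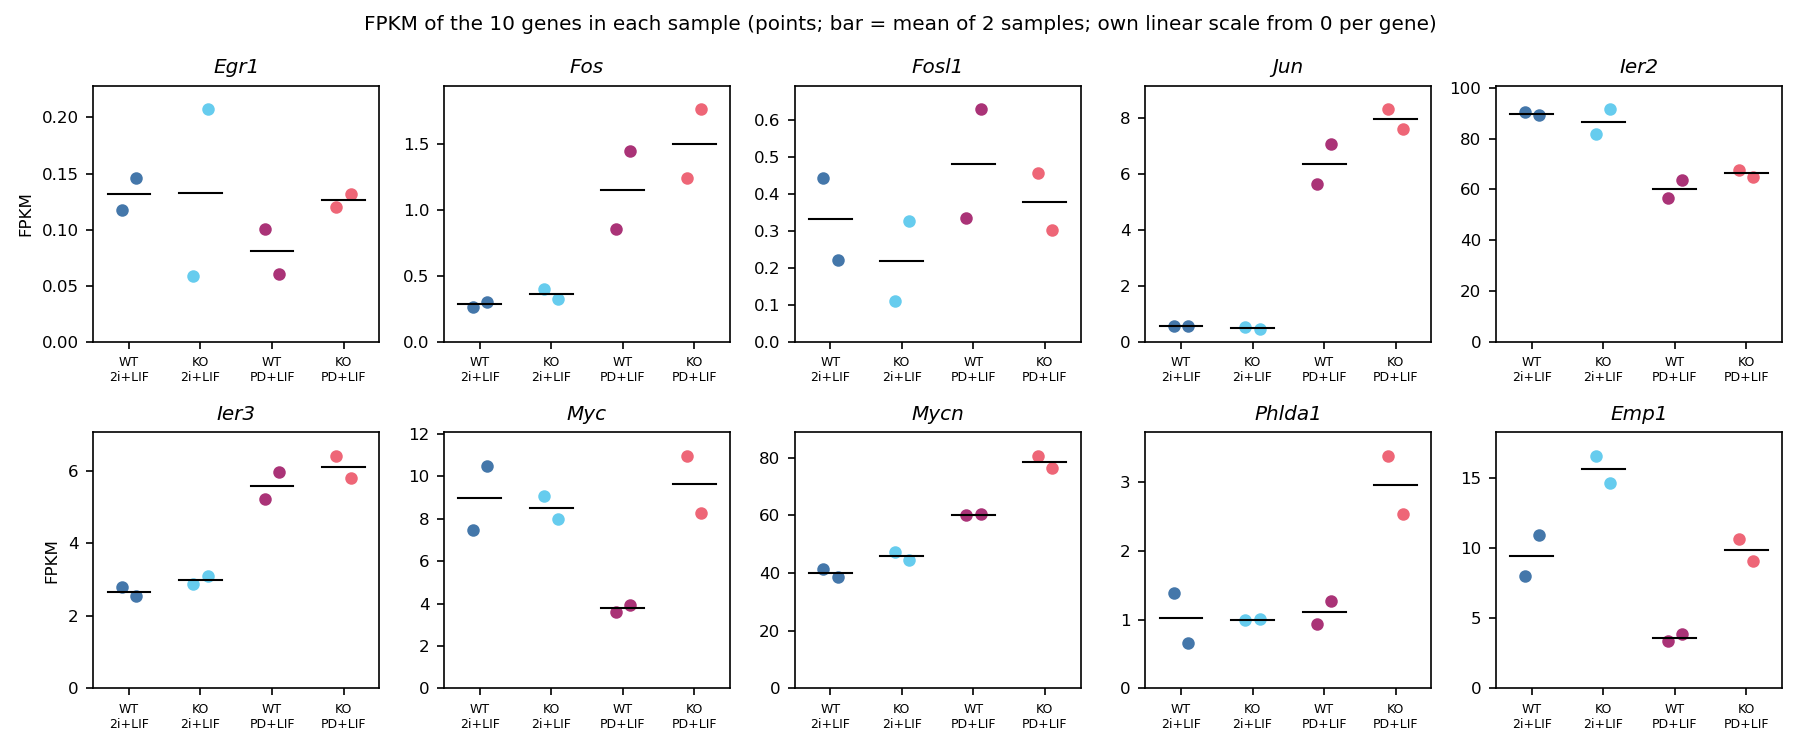
FPKM of the 10 genes in the 8 samples, with 1 panel per gene on its own linear scale from 0; points are samples and bars are means of the 2 samples of wild type (WT) or Trincr1-/- (KO) in each medium. Jun is under 1 FPKM in all 4 samples in 2i+LIF and above 5 FPKM in all 4 in PD+LIF, Myc is lowest in the 2 wild-type samples in PD+LIF, and Phlda1 is highest in the 2 Trincr1-/- samples in PD+LIF.

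Egr1, a zinc finger factor and a direct SRF target (chr18:34859822-34864984, GRCm38), was nearly silent. It was listed at 0.117 and 0.146 FPKM in wild-type and 0.0588 and 0.207 FPKM in Trincr1-/- ESCs in 2i+LIF, and at 0.101 and 0.0607 FPKM in wild-type and 0.120 and 0.132 FPKM in Trincr1-/- ESCs in PD+LIF. These values correspond to an estimated 2.0 to 6.1 fragments per sample. Without the filter the log2 fold change for the knockout in PD+LIF was 0.06 (95% confidence interval -0.11 to 0.22, limma adjusted p = 0.667). The ratio of means there was 1.56, and the genotypes did not overlap in PD+LIF, as for 57.7% of all genes tested. Adding 1 FPKM before the log shrinks changes at this level, so the narrow interval does not exclude a change. Egr2, Egr3 and Egr4 were likewise under the filter, and were named after their values were seen.

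Fos, the inducible partner of JUN in AP-1 (chr12:85473889-85477273), was low in 2i+LIF and higher in PD+LIF. Its levels in 2i+LIF were 0.262 and 0.305 FPKM in wild-type and 0.401 and 0.322 FPKM in Trincr1-/- ESCs. In PD+LIF they were 0.856 and 1.45 FPKM in wild-type and 1.25 and 1.77 FPKM in Trincr1-/- ESCs. The order of the means was wild type in 2i+LIF, knockout in 2i+LIF, wild type in PD+LIF and knockout in PD+LIF, and only the last pair of neighbors overlapped, although the 2i+LIF values of both genotypes rested on as few as 6.0 fragments. Fosl1, the FOS family member FRA1 and a typical late ERK target (chr19:5447702-5455945), was at 0.443 and 0.222 FPKM in wild-type and 0.110 and 0.327 FPKM in Trincr1-/- ESCs in 2i+LIF. In PD+LIF it was at 0.334 and 0.628 FPKM in wild-type and 0.456 and 0.300 FPKM in Trincr1-/- ESCs. All neighboring groups overlapped for Fosl1, at an estimated 2.0 to 11.0 fragments per sample.

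Jun (chr4:95049033-95052222), which encodes the c-Jun subunit of AP-1, had the widest range of the 10 genes. It was at 0.555 and 0.554 FPKM in wild-type and 0.523 and 0.459 FPKM in Trincr1-/- ESCs in 2i+LIF. These 2i+LIF values rested on an estimated 13.9 to 19.9 fragments per sample. In PD+LIF the wild-type samples were at 5.64 and 7.06 FPKM and the Trincr1-/- samples at 8.31 and 7.62 FPKM. The highest group mean was 16.2 times the lowest, and no neighboring groups overlapped, although the step between the genotypes was small in both media.

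Ier2 (chr8:84661330-84662852), a nuclear protein gene induced early by serum, ran the other way. It was at 90.5 and 89.2 FPKM in wild-type and 81.8 and 91.6 FPKM in Trincr1-/- ESCs in 2i+LIF, against 56.8 and 63.7 FPKM in wild-type and 67.7 and 64.9 FPKM in Trincr1-/- ESCs in PD+LIF. Every sample in 2i+LIF was above every sample in PD+LIF, and the genotypes overlapped in 2i+LIF but not in PD+LIF. Ier3 (chr17:35821683-35822923), an early gene tied to ERK signaling and cell survival, was at 2.80 and 2.54 FPKM in wild-type and 2.87 and 3.09 FPKM in Trincr1-/- ESCs in 2i+LIF. In PD+LIF it was at 5.23 and 5.96 FPKM in wild-type and 6.42 and 5.81 FPKM in Trincr1-/- ESCs, so the media separated fully and the genotypes overlapped in PD+LIF.

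Myc (chr15:61985340-61990374) stood apart in a single group. It was at 7.49 and 10.5 FPKM in wild-type and 9.08 and 7.98 FPKM in Trincr1-/- ESCs in 2i+LIF. In PD+LIF, wild-type ESCs were at 3.60 and 3.95 FPKM, while Trincr1-/- ESCs were at 11.0 and 8.29 FPKM. The wild-type PD+LIF samples were below the other 6, and the other 3 groups overlapped with their neighbors. Mycn (chr12:12936095-12941914) was the more abundant of the pair in every sample, going from 41.2 and 38.5 FPKM in wild-type and 47.4 and 44.6 FPKM in Trincr1-/- ESCs in 2i+LIF to 59.9 and 60.5 FPKM in wild-type and 80.6 and 76.4 FPKM in Trincr1-/- ESCs in PD+LIF. No neighboring groups overlapped, and the highest group mean was 1.97 times the lowest.

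Phlda1 (chr10:111506285-111508645), a pleckstrin homology domain gene of growth factor responses, was at 1.38 and 0.666 FPKM in wild-type and 0.992 and 1.01 FPKM in Trincr1-/- ESCs in 2i+LIF. In PD+LIF it was at 0.945 and 1.28 FPKM in wild-type and 3.39 and 2.54 FPKM in Trincr1-/- ESCs. Only the Trincr1-/- samples in PD+LIF separated from the rest. Emp1 (chr6:135362930-135383173), which encodes a tetraspan membrane protein of epithelia, was at 8.01 and 10.9 FPKM in wild-type and 16.6 and 14.7 FPKM in Trincr1-/- ESCs in 2i+LIF. In PD+LIF it was at 3.35 and 3.86 FPKM in wild-type and 10.7 and 9.10 FPKM in Trincr1-/- ESCs. It was higher in both Trincr1-/- samples than in both wild-type samples of the same medium, and the group order was wild type in PD+LIF, wild type in 2i+LIF, knockout in PD+LIF and knockout in 2i+LIF, of which the middle pair overlapped.

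The comparison of the media asked how these genes stood after 4 days without CHIR99021 while MEK stayed inhibited. The time since plating or last feeding of the 2i+LIF samples was not given in the sources used here. Differences in culture time or feeding and the removal of CHIR99021 cannot be told apart. In wild-type ESCs, Jun rose 11.5-fold, Fos 4.06-fold, Ier3 2.10-fold and Mycn 1.51-fold, while Emp1 fell 2.63-fold, Myc 2.38-fold and Ier2 1.49-fold. Phlda1 and Fosl1 had ratios of 1.08 and 1.45 and were not past the threshold. Of the 9 genes tested, 7 had a limma adjusted p under 0.05, 4 higher and 3 lower, where 52.2% of all 15430 genes were called, 30.9% higher and 21.3% lower. The share of higher genes among all calls was 59.2%, and 49.1% after quantile normalization. Since a majority of all genes was called, the number of calls is not a result about these genes. On the log2 scale, Jun changed by 2.23 ± 0.13 (SE; limma adjusted p = 2.0e-05), Ier3 by 0.84 ± 0.11 (limma adjusted p = 0.000656), Fos by 0.73 ± 0.17 (limma adjusted p = 0.00962) and Mycn by 0.58 ± 0.06 (limma adjusted p = 0.000163). Emp1 changed by -1.17 ± 0.15 (limma adjusted p = 0.000636), Myc by -1.05 ± 0.18 (limma adjusted p = 0.00203) and Ier2 by -0.57 ± 0.07 (limma adjusted p = 0.000584). The median over the 9 genes was 0.15 on the log2 scale, beside 0.08 over all genes tested. Wild-type replicates of the 2 media did not overlap for 7 of the 9 genes, and for 76.4% of all genes.

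In Trincr1-/- ESCs, the same change of medium raised Jun 16.2-fold, Fos 4.17-fold, Phlda1 2.96-fold, Ier3 2.05-fold and Mycn 1.71-fold, and lowered Emp1 1.58-fold and Ier2 1.31-fold. Myc was at a ratio of 1.13 with a log2 fold change of 0.15 (95% confidence interval -0.26 to 0.56, limma adjusted p = 0.514). Of the 9 genes, 7 were called, 5 higher and 2 lower, where 50.0% of all genes were called, 29.6% higher and 20.3% lower, and 59.3% of all calls were higher (48.2% after quantile normalization). Phlda1 changed by 0.98 ± 0.20 on the log2 scale (SE; limma adjusted p = 0.00548) and Emp1 by -0.61 ± 0.15 (limma adjusted p = 0.0128). The Emp1 call was lost without replicate 1 of the knockout in 2i+LIF (limma adjusted p = 0.0769) and without replicate 2 of the knockout in PD+LIF (limma adjusted p = 0.0838). The median over the 9 genes was 0.76, beside 0.07 over all genes. By the fold rule of the study, a ratio of group means above 2 with an average of at least 1 FPKM, Ier3 and Jun were higher and Myc and Emp1 lower in wild-type ESCs in PD+LIF (10.7% and 4.36% of all genes), and Ier3, Jun and Phlda1 were higher in Trincr1-/- ESCs (10.9%), with none lower (4.7%). Replicates of the 2 media did not overlap for 7 of the 9 genes in Trincr1-/- ESCs either, where 74.5% of all genes did not. By the fold rule, Ier3 in both genotypes and Myc in wild-type ESCs passed or not depending on the replicate left out.

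**Figure D2:**
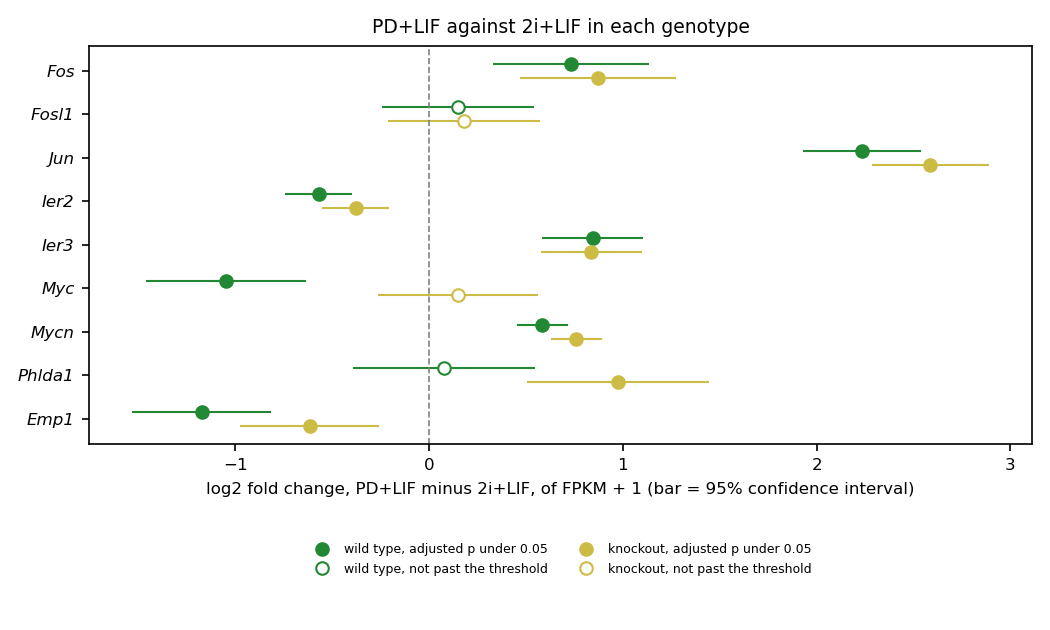
Log2 fold change of PD+LIF against 2i+LIF on the log2(FPKM + 1) scale for the 9 genes tested, in wild-type (green) and Trincr1-/- ESCs (yellow); bars are 95% confidence intervals and filled points have a limma adjusted p under 0.05. Jun stands at 2.23 and 2.59, Emp1 and Ier2 lie below 0 in both genotypes, and Myc is below 0 in wild-type ESCs and near 0 in Trincr1-/- ESCs.

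The knockout was compared with wild type in each medium to ask which of these genes depended on Trincr1. In 2i+LIF, none of the 9 genes was called by limma at an adjusted p under 0.05, where 1.21% of all genes were, and 2 of the 9, Emp1 and Mycn, had an unadjusted p under 0.05, as 14.6% of all genes did. Emp1 was 1.65 times as high in Trincr1-/- as in wild-type ESCs, a difference of 0.68 on the log2 scale (standard error 0.15, limma adjusted p = 0.105). Mycn was at a ratio of 1.15, or 0.20 on the log2 scale (standard error 0.06, limma adjusted p = 0.166). The other 7 genes had log2 fold changes between -0.13 (Fosl1) and 0.12 (Ier3), with limma adjusted p-values from 0.708 to 1.0, and the interval for Myc ran from -0.47 to 0.36. The groups did not overlap for 5 of the 9 genes (Emp1, Mycn, Fos, Ier3 and, downward, Jun), against 44.4% of all genes, and no member passed the fold rule, which 0.687% of all genes passed upward and 1.28% downward.

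In PD+LIF, 4 of the 9 genes rose in the knockout: Emp1 by 2.74-fold, Phlda1 by 2.67-fold, Myc by 2.55-fold and Mycn by 1.30-fold. On the log2 scale this was 1.24 ± 0.15 for Emp1 (SE; limma adjusted p = 0.00519), 1.14 ± 0.18 for Myc (limma adjusted p = 0.00975), 0.91 ± 0.20 for Phlda1 (limma adjusted p = 0.0307) and 0.38 ± 0.06 for Mycn (limma adjusted p = 0.00874). These calls stand beside 6.29% of all genes called higher and 12.1% called in either direction, and none of the 9 was called lower. The other 5 genes did not pass: Jun had a ratio of 1.25 and a log2 fold change of 0.29 (95% confidence interval -0.01 to 0.59, limma adjusted p = 0.191), Fos of 0.23 (-0.18 to 0.63, limma adjusted p = 0.438), Ier2 of 0.14 (-0.03 to 0.31, limma adjusted p = 0.264), Ier3 of 0.11 (-0.15 to 0.37, limma adjusted p = 0.565) and Fosl1 of -0.10 (-0.49 to 0.29, limma adjusted p = 0.750). The median over the 9 genes was 0.29 and over all genes 0.01. Groups did not overlap for 6 of the 9 genes, with Jun and Ier2 beside the 4 called, against 57.7% of all genes. Emp1, Myc and Phlda1 also passed the fold rule, as 1.45% of all genes did upward, whichever replicate was left out.

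The calls in PD+LIF rested on few samples. Without replicate 1 of the knockout in PD+LIF, none of the 4 genes was called, with limma adjusted p-values of 0.0527 for Emp1, 0.0683 for Mycn, 0.0743 for Myc and 0.168 for Phlda1, and log2 fold changes of 1.14, 0.34, 0.96 and 0.75. Without replicate 1 of wild type in PD+LIF, Emp1 alone was called, and without replicate 2 of wild type in PD+LIF, Emp1 and Mycn were. The Phlda1 call was also lost without replicate 2 of the knockout in PD+LIF (limma adjusted p = 0.0681), and without replicate 1 (0.0549) or replicate 2 (0.0548) of the knockout in 2i+LIF, whose values enter its estimate of the spread.

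**Figure D3:**
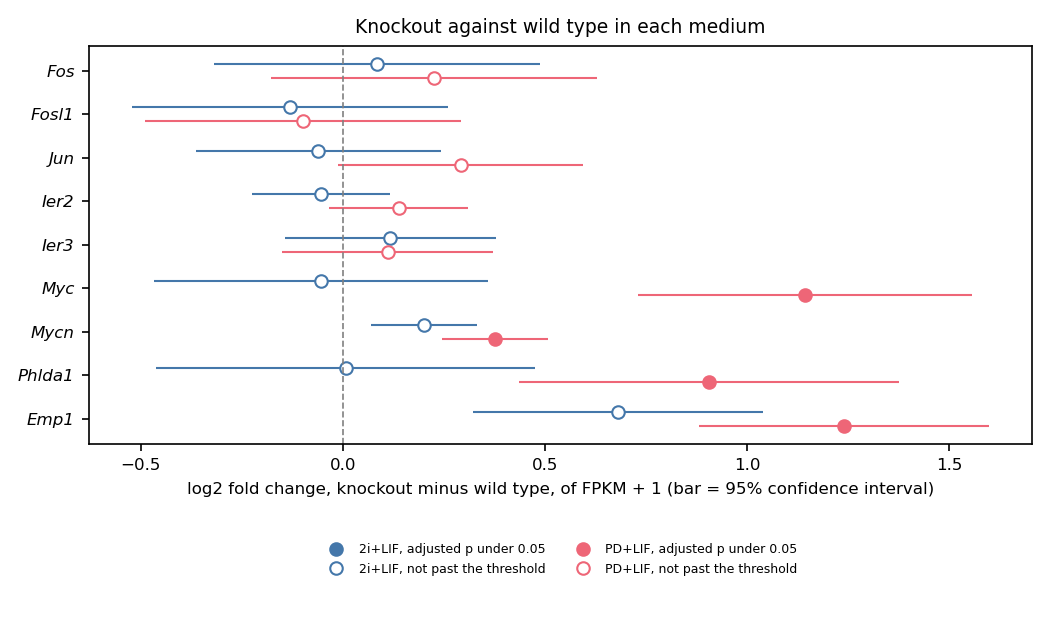
Log2 fold change of Trincr1-/- against wild-type ESCs on the log2(FPKM + 1) scale for the 9 genes tested, in 2i+LIF (blue) and PD+LIF (red); bars are 95% confidence intervals and filled points have a limma adjusted p under 0.05. Emp1, Myc, Phlda1 and Mycn are filled in PD+LIF at 1.24, 1.14, 0.91 and 0.38, and no point is filled in 2i+LIF.

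An interaction term tested whether the effect of the knockout differed between the media. None of the 9 genes passed by limma, where 1.81% of all genes did, and Myc, Phlda1 and Emp1 had an unadjusted p under 0.05, as 19.0% of all genes did. The effect on Myc was larger in PD+LIF by 1.20 on the log2 scale (standard error 0.25, limma adjusted p = 0.0641), on Phlda1 by 0.90 (standard error 0.28, limma adjusted p = 0.154) and on Emp1 by 0.56 (standard error 0.22, limma adjusted p = 0.222). With only genes of at least 1 FPKM on average in the fit, Myc passed at a limma adjusted p of 0.0493, at the same difference and a standard error of 0.24. The lower level of Myc and Emp1 in wild-type ESCs in PD+LIF enters both the comparison of media and that of genotypes, which share those 2 samples and are not independent.

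Since FPKM is a level per length, related genes could be set side by side. The ratio of Mycn to Myc was 5.50 and 3.68 in wild-type and 5.22 and 5.59 in Trincr1-/- ESCs in 2i+LIF. In PD+LIF it was 16.6 and 15.3 in wild-type and 7.35 and 9.22 in Trincr1-/- ESCs, so wild-type ESCs in PD+LIF held the lowest share of Myc. The sum of Myc and Mycn was highest in the knockout in PD+LIF, at 91.6 and 84.7 FPKM, and lowest in wild-type ESCs in 2i+LIF, at 48.7 and 49.0 FPKM. Among the JUN genes, Jun was the least abundant and made up 1.47% to 1.94% of the summed Jun, Junb and Jund FPKM in 2i+LIF and 7.56% to 10.2% in PD+LIF. The JUN sum was 26.9 to 36.6 FPKM in 2i+LIF and 74.6 to 82.3 FPKM in PD+LIF. The 4 FOS genes (Fos, Fosb, Fosl1 and Fosl2) summed to 0.684 to 0.869 FPKM in 2i+LIF and 2.38 to 4.29 FPKM in PD+LIF, far below the JUN genes in each sample. Emp1 made up 68.7% to 83.4% of the summed Emp1, Emp2, Emp3 and Pmp22 FPKM in 2i+LIF and 26.3% to 38.5% in PD+LIF.

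**Figure D4:**
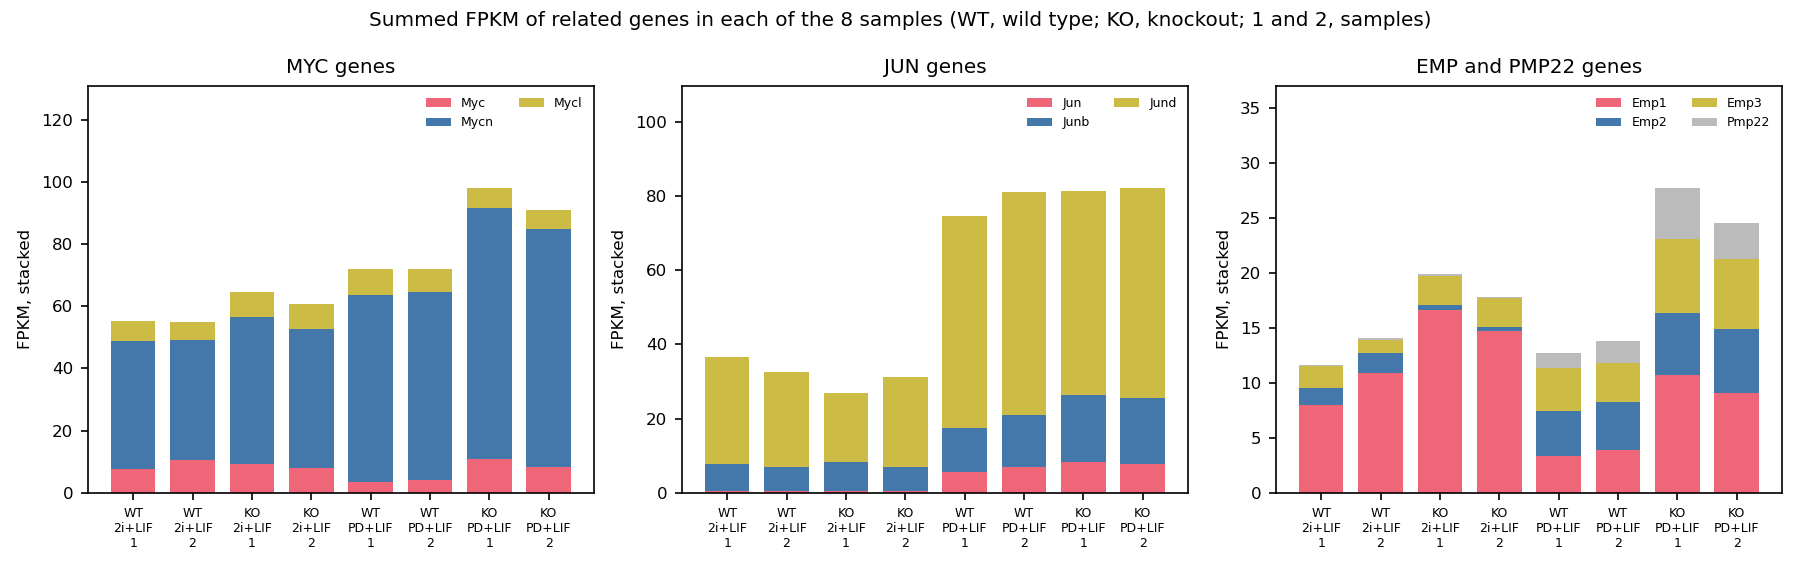
Stacked FPKM of the MYC, JUN, and EMP and PMP22 genes in each of the 8 samples of wild type (WT) and Trincr1-/- (KO). Myc and Mycn sum to 91.6 and 84.7 FPKM in the Trincr1-/- samples in PD+LIF, the JUN sum lies between 74.6 and 82.3 FPKM in PD+LIF and between 26.9 and 36.6 FPKM in 2i+LIF, and Emp1 makes up 68.7% to 83.4% of the third family in 2i+LIF and 26.3% to 38.5% in PD+LIF.

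The families and pathways of the 10 genes were described from lists chosen from textbook knowledge, with earlier results of these data known. The counts below therefore describe the listed genes and are no independent support. Of 16 AP-1 family genes, which include the 3 members Fos, Fosl1 and Jun, 14 were tested. Between the media in wild-type ESCs 11, with Fos and Jun among them, were higher and 1 lower in PD+LIF, where 30.9% and 21.3% of all genes were, with a median log2 fold change of 0.84 beside 0.08 for all genes. In Trincr1-/- ESCs 10 were higher, again with Fos and Jun, and none lower, beside 29.6% and 20.3% of all genes. Jund, an AP-1 subunit that is expressed without stimulation, rose 2.16-fold in wild-type ESCs (limma adjusted p = 0.000301), and Maff, a small MAF factor, rose 7.37-fold (limma adjusted p = 9.2e-05). Fosl2, which encodes the FOS family member FRA2, rose in wild-type ESCs from 0.117 and 0.0874 FPKM to 1.03 and 1.43 FPKM. This is a ratio of 12.1 (limma adjusted p = 0.000598), whose size is uncertain because the 2i+LIF level was near the floor. Fosl2 was also higher in the knockout in PD+LIF by 1.80-fold (limma adjusted p = 0.0409). Batf3 and Junb, named after their values were seen, were the other 2 of 3 AP-1 genes higher in the knockout in PD+LIF (6.29% of all genes). Both were close to the threshold (limma adjusted p = 0.0499 and 0.0459). Over all genes, the number of calls for this comparison depended on the samples fitted, as given further below. The calls in this and the following lists carry the same limit. For the knockout in 2i+LIF limma called none (1.21% of all genes), and 2 of the 14 had an unadjusted p under 0.05 (14.6% of all genes).

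Of 30 other immediate early and serum response genes, 9 of which also stand in another of the lists, 26 were tested. In wild-type ESCs 19 were higher and 2 lower in PD+LIF (30.9% and 21.3% of all genes), with a median log2 fold change of 0.50, and in Trincr1-/- ESCs 17 were higher and 4 lower (29.6% and 20.3%). Btg2, an antiproliferative early gene, rose 3.94-fold in wild-type ESCs (limma adjusted p = 1.1e-05), Klf6, a zinc finger factor, 3.91-fold (limma adjusted p = 1.0e-05) and Cyr61, a matricellular protein gene regulated by SRF and YAP, 3.68-fold (limma adjusted p = 5.2e-05). The knockout in PD+LIF changed 5 of the 26 upward and 3 downward (6.29% and 5.77% of all genes), with a median of 0.06 beside 0.01 for all genes. Ier5, a relative of Ier2, was among the 5 that rose, by 1.64-fold (limma adjusted p = 0.0275), and Arc, Mcl1 and Klf2, named after their values were seen, were the 3 that fell. For the knockout in 2i+LIF limma called 0 of 26 (1.21% of all genes), and 3 had an unadjusted p under 0.05 (14.6% of all genes). Of 6 SRF cofactors and ternary complex factors, 3 were higher and 2 lower in PD+LIF in either genotype. Of all genes, 30.9% and 21.3% were in wild-type and 29.6% and 20.3% in Trincr1-/- ESCs. Srf was at a ratio of 1.40 in wild-type ESCs (limma adjusted p = 0.00313) and Elk3, a ternary complex factor, at 0.516 (limma adjusted p = 0.00343). For the knockout limma called 0 of the 6 in 2i+LIF (1.21% of all genes) and in PD+LIF (12.1%), also at an unadjusted p under 0.05.

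ERK activity was not measured in these RNA samples, and MEK was inhibited in all 4 groups. Of the 11 ERK feedback genes and ETS targets tested, 3 were higher and 7 lower in PD+LIF in wild-type ESCs (30.9% and 21.3% of all genes), with a median of -0.68. In Trincr1-/- ESCs 3 were higher and 5 lower (29.6% and 20.3%). Etv4, an ETS factor, was at 46.4 and 50.4 FPKM in wild-type ESCs in 2i+LIF and at 0.965 and 0.940 FPKM in PD+LIF, while Dusp5, a nuclear ERK phosphatase, rose 5.10-fold (limma adjusted p = 0.000224). In PD+LIF the knockout changed 2 of the 11 upward and 1 downward (6.29% and 5.77% of all genes), with a median of 0.27 beside 0.01. The ETS factor Etv1 rose 2.76-fold (limma adjusted p = 0.0447) and Spred1, an inhibitor of ERK signaling, 1.60-fold (limma adjusted p = 0.0152), both named after their values were seen, while Etv5, another ETS factor, fell to a ratio of 0.750 (limma adjusted p = 0.00665). In 2i+LIF limma called 0 of 11 (1.21% of all genes), of which 1 had an unadjusted p under 0.05 (14.6% of all genes).

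Around MYC, the 12 genes of the network of partners and antagonists, Myc and Mycn included, held 7 that were higher and 1, Myc itself, that was lower in PD+LIF in wild-type ESCs (30.9% and 21.3% of all genes). In Trincr1-/- ESCs 4 were higher and 3 lower (29.6% and 20.3%). Mxd4, an antagonist of MYC, rose 6.91-fold (limma adjusted p = 0.000171) from 0.355 and 0.382 FPKM to 2.33 and 2.76 FPKM. In the knockout in PD+LIF, Myc and Mycn were the 2 called higher, and Mxi1 and Mga, named after their values were seen, the 2 called lower (6.29% and 5.77% of all genes). For the knockout in 2i+LIF limma called 0 of 12 (1.21% of all genes), of which 5 had an unadjusted p under 0.05 (14.6% of all genes). Of 20 MYC target genes, 16 were lower and 3 higher in PD+LIF in wild-type ESCs (21.3% and 30.9% of all genes), with a median of -0.40, and 14 were lower and 3 higher in Trincr1-/- ESCs (20.3% and 29.6%). The knockout in PD+LIF raised 6 of the 20 and lowered none, with a median of 0.14 beside 0.01 for all genes and 6.29% of all genes called higher. For the knockout in 2i+LIF limma called 0 of 20, also at an unadjusted p under 0.05 (1.21% and 14.6% of all genes). Ncl, the nucleolar protein nucleolin, was at 776 and 818 FPKM in wild-type ESCs in 2i+LIF and 530 and 519 FPKM in PD+LIF, and was 1.16 times as high in the knockout in PD+LIF (limma adjusted p = 0.0190). Ccnd1, cyclin D1, fell to 0.396 of its 2i+LIF level in wild-type ESCs (limma adjusted p = 2.5e-05), and its ratio for the knockout in PD+LIF was 1.24 (limma adjusted p = 0.0547).

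Of 7 paralogs of Emp1, Phlda1 and Ier2, 6 were higher in PD+LIF in each genotype, beside 30.9% of all genes in wild-type and 29.6% in Trincr1-/- ESCs, and 4 were higher in the knockout in PD+LIF (6.29%). The remaining one, Ier5l, a relative of Ier2 also named after its values were seen, did not pass between media, with means of 9.58 FPKM in 2i+LIF and 7.03 FPKM in PD+LIF in wild-type ESCs (limma adjusted p = 0.0734) and 8.35 and 10.8 FPKM in Trincr1-/- ESCs (limma adjusted p = 0.147). Phlda2, an imprinted placental growth regulator, rose 4.56-fold between media in wild-type ESCs (limma adjusted p = 4.3e-06) and was 1.47 times as high in the knockout in PD+LIF (limma adjusted p = 0.00656). Pmp22, the peripheral myelin protein gene, was at 0.104 and 0.173 FPKM in wild-type ESCs in 2i+LIF and 1.35 and 1.93 FPKM in PD+LIF, and its ratio for the knockout in PD+LIF was 2.44 (limma adjusted p = 0.0210). Emp2, another member of the EMP family, fell in the knockout in 2i+LIF from 1.56 and 1.74 FPKM to 0.431 and 0.363 FPKM, a ratio of 0.241 (limma adjusted p = 0.0121), while Emp1 was at a ratio of 1.65 there. Dissociation of cells can also induce immediate early genes, and of 11 dissociation and heat stress genes 1 was higher and 7 lower in PD+LIF in wild-type ESCs (30.9% and 21.3% of all genes). In Trincr1-/- ESCs 3 were higher and 7 lower (29.6% and 20.3%). The 3 were the heat shock genes Hspa1a (3.78-fold, limma adjusted p = 0.0430), Hspa1b (2.22-fold, limma adjusted p = 0.0277) and Dnajb1 (1.19-fold, limma adjusted p = 0.0152), named after their values were seen. Hspa1a rose from 0.0892 and 0.142 FPKM, near the floor, so the size of its ratio is uncertain. In the knockout in PD+LIF 3 were higher and 1 lower (6.29% and 5.77%). For the knockout in 2i+LIF limma called 0 of 11 (1.21% of all genes), of which 2 had an unadjusted p under 0.05 (14.6% of all genes). Hspd1, a mitochondrial chaperone, was at a ratio of 0.612 between media in wild-type ESCs (limma adjusted p = 1.3e-05). The part of cell handling in the levels of the 10 genes was not tested.

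**Figure D5:**
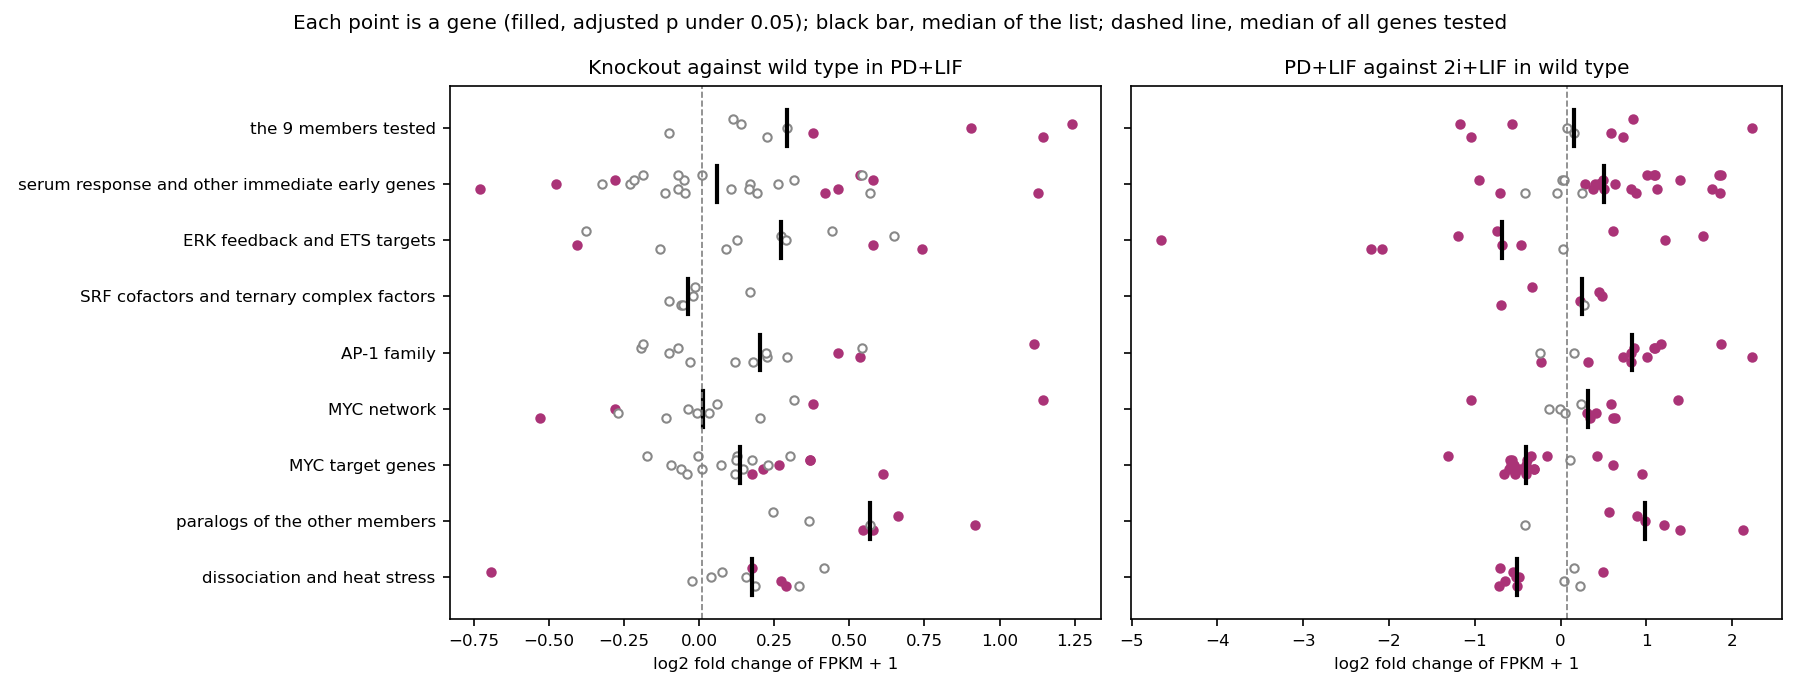
Log2 fold change of FPKM + 1 for each gene of the lists, for the knockout in PD+LIF on the left and for PD+LIF against 2i+LIF in wild-type ESCs on the right; filled points have a limma adjusted p under 0.05, black bars are medians and the dashed line is the median of all genes tested. The AP-1 family and the immediate early genes lie mostly right of the line between media, with medians of 0.84 and 0.50, and the MYC targets and ERK feedback genes mostly left of it, with medians of -0.40 and -0.68.

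Across the 8 samples, the genes most like each member in log2(FPKM + 1) were found among 12063 genes with a mean above 1 FPKM. Jun was closest to Acta2, Tagln and Pdlim7, actin cytoskeleton genes, each with Pearson's r = 0.999. Ier3 was closest to Pla2g15 (r = 0.996), and Mycn to Cand2 (r = 0.997). Myc was closest to Bms1, a ribosome assembly factor (r = 0.985), Phlda1 to Bin3 (r = 0.977), Emp1 to Cmss1 (r = 0.990) and Ier2 to Pnp2 (r = 0.995). Between the members, Jun and Ier3 had r = 0.988, Jun and Fos r = 0.953, Myc and Emp1 r = 0.878, and Jun and Ier2 r = -0.916. The 8 samples fall into 4 groups of 2, so these coefficients describe the pattern over the groups, and many genes that change between the media share it.

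The pulldown of FLAG-tagged TRIM71, the RNA-binding protein that Trincr1 binds, gave a further readout of these transcripts in cells without the knockout. ESCs overexpressing 3XFLag-Trim71 in 2i+LIF were crosslinked with UV light and bound RNA was recovered through the FLAG tag, and 1 deposited value per transcript stood for the immunoprecipitation (IP) and 1 for the input, so there is no replicate check. Of the 10 genes, 9 were among the 14054 transcripts listed. The input held 49.2 FPKM of Ier2 and the IP 22.9 FPKM, a ratio of 1.05 after the authors' scaling of the IP. Ier3 had 8.6 and 2.2 FPKM with a ratio of 0.581, and Mycn 5.8 and 0.3 FPKM with a ratio of 0.121. The median ratio of transcripts with an input above 2 FPKM and an IP above 0 was 0.512, and none of these 3 was among the 492 of 9651 transcripts with a ratio above 3. Emp1, Jun, Fos, Phlda1, Myc and Fosl1 were listed at 0 in the IP, from inputs of 10.1, 3.8, 1.0, 0.5, 0.5 and 0.3 FPKM. Of transcripts with an input within 1.25-fold of theirs, 54.0% (Emp1) to 93.4% (Fosl1) were also listed at 0, and 60.2% of all transcripts were, so a value of 0 says only that the transcript was not detected.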

How the data were processed

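Poly(A) RNA-seq values were analysed for 8 of the 14 samples of the series, as labelled, in 4 groups of 2. The authors aligned reads with STAR 2.5.0 and deposited normalized FPKM per gene from Cufflinks 2.2.1. The methods name mm9, while the coordinates in the table are those of GRCm38 and are printed as such. For FLAG-TRIM71, the authors deposited FPKM for IP and input and a second pair of columns scaled by them, a signal relative to the average of all transcripts. The labels list 2 replicates of each, and 1 value is given; the input was poly-T selected per the labels, the IP was not. The column of the authors' own fold of enrichment was not used, and the empty-vector IP was not used here.

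Of 41260 entries, 1 per gene identifier was kept (41204 genes). Genes with a mean above 0.2 FPKM (15430) were tested on log2(FPKM + 1) with limma 3.58.1 in R 4.3.3, with the 4 groups in 1 model, 4 residual degrees of freedom, a variance trend and Benjamini-Hochberg adjustment over all genes at a threshold of 0.05. Fold changes on this scale understate the change of low genes. The fold rule set group means under 0.1 FPKM to 0.1. Depth was inferred from the spacing of the lowest FPKM values, and fragments per gene from it and the longest transcript. FPKM sums were 497196 to 519710, and no further scaling was applied in the main fit. Similar sums cannot exclude a shift between media. Median-of-ratios size factors were 0.976 to 0.981 in 2i+LIF and 1.03 to 1.05 in PD+LIF. Scaling by them moved the median log2 fold change of all genes between media in wild-type ESCs from 0.0756 to 0.0097. The fit was tested on simulated data. Promoters came from RefSeq (GRCm38.p6), with 5 of the 10 genes matched. Python 3.11.15, pandas 2.3.3, numpy 2.4.6 and matplotlib 3.10.9 were used.

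The 10 genes and the lists of relatives were chosen with earlier results of these data known. Of each list, up to 4 genes with the smallest p in any comparison were named, and up to 3 genes most correlated with each member above 1 FPKM. Alternatives were the pseudocount, low-value filter, normalization, variance model, samples fitted, replicate block, cutoffs and IP scaling.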

Additional observations from a re-analysis of the deposited data

Results flagged for a closer look

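For 2 of the 94 listed relatives tested, the effect of the knockout differed between the media by the interaction test. This is 2.13%, near the 1.81% of all genes called, and over all genes the number of calls fell from 279 to between 3 and 34 when 1 sample was left out, so the count is not a result about the relatives. Emp2, a relative of Emp1, was at 1.56 and 1.74 FPKM without and 0.431 and 0.363 FPKM with the knockout in 2i+LIF, and at 4.10 and 4.37 FPKM without and 5.69 and 5.80 FPKM with it in PD+LIF, a difference of 1.29 on the log2 scale (standard error 0.15, limma adjusted p = 0.0244). Zfp36l1, an early gene for an mRNA decay factor, named after its values were seen, was at 26.1 FPKM (mean of 2) without and 27.0 FPKM with the knockout in 2i+LIF, and at 15.7 and 35.4 FPKM in PD+LIF, a difference of 1.09 (standard error 0.14, limma adjusted p = 0.0272).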

How the results depend on the processing

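Of 746 values of the 9 genes under the alternatives, 705 kept their direction and their side of the threshold, 18 lost the call in the same direction, 1 gained it, and 22 changed direction, none of which had a limma adjusted p under 0.05. With quantile normalization, the log2 fold change between media turned to -0.17 for Phlda1 and -0.024 for Fosl1 in wild-type ESCs and to 0.0 for Myc in Trincr1-/- ESCs. The other 19 came from leaving out 1 sample, which gave log2 fold changes for the knockout in 2i+LIF of -0.25 to 0.27 (Phlda1), -0.27 to 0.16 (Myc) and -0.13 to 0.028 (Ier2), for the knockout in PD+LIF of -0.24 to 0.045 (Fosl1), for the interaction of -0.058 to 0.34 (Fos), -0.11 to 0.17 (Fosl1) and -0.088 to 0.073 (Ier3), and for the medium of -0.18 to 0.34 (Phlda1, wild-type ESCs) and -0.033 to 0.33 (Myc, Trincr1-/- ESCs). Calls lost were those of Phlda1, Myc, Mycn and Emp1. Phlda1 in PD+LIF was not called with a pseudocount of 0.1 (limma adjusted p = 0.0541), without the filter (0.0670) or with only the 4 samples of PD+LIF (0.0719), and Myc not with those 4 samples (0.0535), which left 2 of the 9 genes called. For the interaction, 1 gene (Myc) was called with a mean of at least 1 FPKM. Leaving out 1 sample gave 0 to 4 calls among the 9 genes for the knockout in PD+LIF, 6 to 7 for the medium in Trincr1-/- and 7 to 7 in wild-type ESCs, and by the fold rule 2 to 4 for the medium in wild-type ESCs, 2 to 3 in Trincr1-/- ESCs and 3 to 3 for the knockout in PD+LIF. With a ratio above 1.5, the fold rule found 1 gene (Emp1) for the knockout in 2i+LIF and 5 for the medium in Trincr1-/- ESCs; with an average of at least 5 FPKM it found 2 and 0 for the medium in wild-type and Trincr1-/- ESCs. Without the authors' scaling of the IP, 0 of the genes had an IP over input above 1, instead of 1 (Ier2).

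Over all genes, the knockout in 2i+LIF gave 186 calls, 122 without the filter, 0 with only its 4 samples (2106 at an unadjusted p under 0.05), 111 with a replicate block and 40 to 113 without 1 sample. In PD+LIF, 1861 calls became 316 with only its 4 samples and 335 to 1519 without 1 sample. The interaction gave 279 calls, 138 without the filter, 88 without a variance trend, 39 with the block and 3 to 34 without 1 sample. The medium gave 6473 to 7936 calls in wild-type and 6136 to 7552 in Trincr1-/- ESCs without 1 sample. Quantile normalization moved the median of all genes between media from 0.07 to -0.03 in Trincr1-/- ESCs. The cause of these changes was not tested, beyond the loss of samples. Samples with the same replicate number did not deviate together (correlations of -0.059 to 0.02 in 6 pairs of groups), so the number was treated as a name, and with the replicate block the same 4 and 7 members were called as without it. Levels under 1 FPKM, as of Egr1 and Fosl1, and of Fos and Jun in 2i+LIF, rest on few fragments. They limit what could be detected and make the size of ratios to them uncertain.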

Other observations

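The input of the TRIM71 pulldown also came from ESCs in 2i+LIF, and several of the 10 genes were listed there at other levels than in wild-type RNA-seq in that medium. Myc had 0.5 FPKM there and 7.49 and 10.5 FPKM in RNA-seq, and Mycn had 5.8 FPKM against 41.2 and 38.5 FPKM. Jun had 3.8 FPKM there and 0.555 and 0.554 FPKM in RNA-seq, while Emp1 was similar, at 10.1 FPKM against 8.01 and 10.9 FPKM. The tables were normalized separately, the pulldown was done in ESCs overexpressing FLAG-TRIM71, and the labels do not give the line of the input. These values are therefore set side by side without a comparison.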
